A study of Mus musculus with 4 samples.

Results

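The histocompatibility genes and the machinery that feeds them peptides were examined in mouse osteoclast precursors with and without Piezo1, the stretch-activated cation channel. Members were taken by name: every row of the deposited table whose symbol starts with H2-, and 18 named genes of class I assembly, peptide supply, class II loading and regulation. The table of 12799 genes held 37 members, made up of 19 genes with an H2- symbol and all 18 named genes. Of these, 25 lie on chromosome 17 and 12 elsewhere. By class they were 13 class I heavy chain genes with their light chain gene B2m, 6 class II genes with the invariant chain gene Cd74, 8 genes of peptide transport and loading, 5 of the immunoproteasome, 2 regulators, and H2-Ke6, which carries an H2 symbol but encodes a hydroxysteroid dehydrogenase. Gm8909 was included because of its difference between genotypes in these libraries, so its values are described with no test. The other members were chosen by symbol.

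The cells were bone marrow-derived monocytes of female mice aged 12 weeks, grown for 3 days with M-CSF at 30 ng/mL and with RANKL at 50 ng/mL, which drive monocytes toward the bone-resorbing osteoclast. Controls carried Piezo1fl/fl and knockouts Csf1r-iCre;Piezo1fl/fl, with 2 libraries each that the design text calls biological replicates. The iCre transgene is driven by the Csf1r promoter, active in the monocyte lineage, and no control had it, so what the transgene does and what Piezo1 loss does cannot be told apart. The sources used here name neither the strain nor the H2 haplotype of the mice. Whether controls and knockouts share both is not stated and was not tested.

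Class I molecules are a polymorphic heavy chain held by B2m, and display peptides cut in the cytosol by the proteasome, carried into the endoplasmic reticulum by Tap1 and Tap2 and fitted by a loading complex. Class II molecules are pairs of alpha and beta chains that display peptides from the endosome after the invariant chain is degraded and H2-DM has exchanged the peptide. The monocyte lineage gives rise to osteoclasts as well as to macrophages and dendritic cells, which present antigen, and mouse class I genes fall into a classical group, K and D, and clusters of non-classical genes named Q, T and M.

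Levels are given as CPM, the reads of a gene divided by the scaled depth of its library. Whole reads recovered from the values totalled 15320308 and 14122118 in control 1 and control 2 and 14997205 and 18897927 in knockout 1 and knockout 2. A single read thus stood for 0.0544 to 0.0700 CPM. Piezo1 was at 430 and 384 CPM in the controls and 61.0 and 56.2 CPM in the knockouts (log2 fold change −2.79, SE 0.10), which matched the labels. All 10 marker genes of macrophages and osteoclasts were in the table, with the receptor gene Csf1r at 1427, 1201, 1310 and 1570 CPM in control 1, control 2, knockout 1 and knockout 2. Summed stromal markers were at 1844 and 2288 CPM in the controls and 1301 and 1182 CPM in the knockouts. Col1a1 and Col1a2 made up most of that sum. Of the 10 stromal markers, Pdgfra, Dcn and Lum overlapped between genotypes, and the others were lower in both knockouts. In bulk RNA, fewer cells of a type and less RNA per cell cannot be told apart.

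Printed sequences show where the class I genes share their upstream region and where they do not. Each is the stretch just before the start site on GRCm38.p6, from RefSeq, printed 5′ to 3′ on the gene's strand. That of H2-T22 leaves out the last 5 bases before the RefSeq start, which GENCODE places in the gene. The sequences are printed with capitals for matches on either strand to the Y box CCAAT, the interferon-stimulated response element, the NF-kB site of class I enhancer A or TGACG, part of a cyclic AMP response element. H2-K1 is the classical gene, H2-Q4 and H2-Q6 stand for the Q cluster, H2-T22 for the T cluster, and Gm8909 is the class I gene with no reads in the controls. The windows are chr17:34000348-34000597 (minus strand), chr17:35379367-35379616 (plus), chr17:35424600-35424849 (plus), chr17:36042748-36042992 (minus) and chr17:36168538-36168787 (minus), in the order printed.
H2-K1: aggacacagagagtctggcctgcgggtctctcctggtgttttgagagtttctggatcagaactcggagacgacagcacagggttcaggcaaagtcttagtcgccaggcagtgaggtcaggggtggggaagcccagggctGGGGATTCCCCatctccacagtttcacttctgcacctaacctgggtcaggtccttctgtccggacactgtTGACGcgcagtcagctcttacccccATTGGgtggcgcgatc
H2-Q4: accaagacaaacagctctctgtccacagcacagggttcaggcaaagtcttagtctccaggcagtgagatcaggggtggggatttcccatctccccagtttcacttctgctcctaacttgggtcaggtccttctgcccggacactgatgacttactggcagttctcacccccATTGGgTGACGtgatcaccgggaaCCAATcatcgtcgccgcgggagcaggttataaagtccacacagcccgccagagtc
H2-Q6: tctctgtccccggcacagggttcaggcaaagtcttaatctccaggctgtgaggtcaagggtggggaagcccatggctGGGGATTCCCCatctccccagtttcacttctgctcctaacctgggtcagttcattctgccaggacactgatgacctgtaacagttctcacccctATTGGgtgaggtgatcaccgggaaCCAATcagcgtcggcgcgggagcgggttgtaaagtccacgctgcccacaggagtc
H2-T22: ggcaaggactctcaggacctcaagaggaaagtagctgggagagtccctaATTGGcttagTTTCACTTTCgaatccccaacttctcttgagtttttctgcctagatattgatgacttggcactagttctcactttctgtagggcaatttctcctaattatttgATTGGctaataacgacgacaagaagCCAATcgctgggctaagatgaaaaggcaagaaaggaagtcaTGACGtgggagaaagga
Gm8909: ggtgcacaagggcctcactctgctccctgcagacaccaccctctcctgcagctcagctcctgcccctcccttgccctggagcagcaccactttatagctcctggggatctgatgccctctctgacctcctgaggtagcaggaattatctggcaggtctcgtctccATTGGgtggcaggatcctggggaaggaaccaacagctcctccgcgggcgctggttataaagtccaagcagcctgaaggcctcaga

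H2-K1 and H2-Q6 both hold the NF-kB site, their longest run of capitals, 111 and 173 bases before the start. This site was in 10 of 32851 promoters of 250 bases (0.0304%), and H2-D1 was the other member of the 30 with a promoter that held it. H2-T22 holds an exact match to the searched pattern of the interferon-stimulated response element, 191 bases before the start. That match was found in 2.98% of promoters and, among members, in H2-T22, H2-T23 and B2m. Gm8909 holds 1 of these matches, CCAAT, 85 bases before the start, against 33.8% of all promoters and 24 of the 30 members. TGACG, present in 17.8% of promoters, was in 14 members. The X1 box of class II promoters, also searched on both strands, was in 0.816% of promoters and in H2-DMb1, H2-Eb1 and Psmb10. These matches describe the C57BL/6J reference and say nothing of binding. Only exact matches were counted. A stretch similar to the interferon pattern stands in lower case in the printed H2-K1, H2-Q4 and H2-Q6. It also occurs in the promoters of H2-D1, H2-Q7, H2-Q10 and H2-M3. The lack of an exact match there thus does not show that these genes lack an interferon-responsive element.

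The class I genes differed in direction by chromosomal cluster, though the filter fixed part of this. Both knockout libraries were above both controls at all 5 measured Q genes and at Gm8909, against 16.5% of all tested genes. Of these, H2-Q2, H2-Q6, H2-Q10 and Gm8909 passed the filter only through the knockouts and had to be higher there. Both knockouts were below both controls at all 3 measured T genes and both M genes, against 15.4% of all tested genes. Of the classical genes, H2-D1 had both knockouts above both controls, while H2-K1 overlapped. Of the 35 tested members other than Gm8909, limma with Benjamini-Hochberg adjustment over all 11781 tested genes called 0, against 0.161% of all tested genes. edgeR also called 0 (0.161% of all genes), and DESeq2 called 2 of the 29 members it gave an adjusted p, H2-T22 and H2-T23, against 0.605% of all genes with one. At an unadjusted limma p under 0.05 there were 12 members, against 4.9% of all genes. Of these, 8 were higher in knockouts (1.35% of all genes) and 4 lower (3.55%). Groups did not overlap at 18 of the 35, against 31.9% of all genes, with 11 above (16.5%) and 7 below (15.4%). The smallest p that an exact permutation test of a single gene can give with these 4 libraries is 0.333.

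The low genes need care in this count. Genes were tested when they reached 1 CPM in at least 2 libraries, and of the 37 members 30 did so through the controls or both groups. H2-Q2, H2-Q6, H2-Q10, H2-DMb2 and Gm8909 passed through the knockouts alone, H2-Q7 through the knockouts and 1 control, and Ciita was not tested. The 5 that passed through the knockouts alone had to be higher there. Of the 12 members at an unadjusted p under 0.05, 7 had passed through the controls or both groups. Outside the Q, T and M clusters and Gm8909, 8 of 25 tested members had groups that did not overlap (32%), near the share of all genes.

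**Figure D1:**
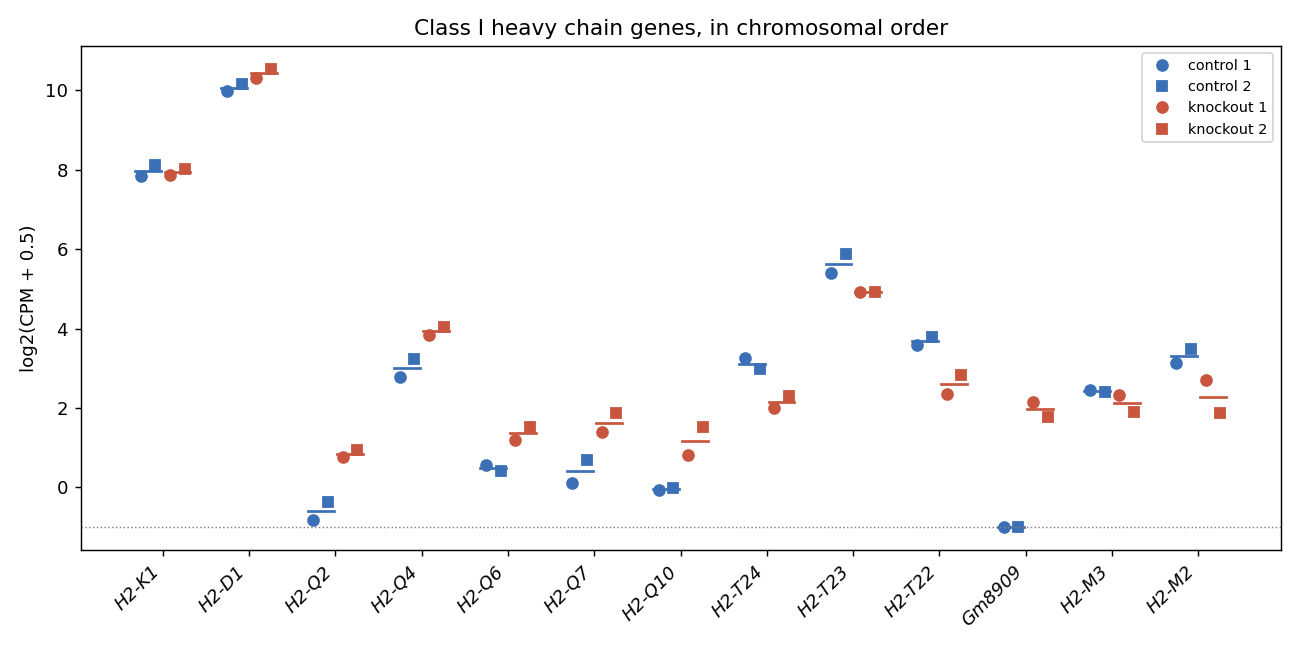
Levels of the 13 class I heavy chain genes in each library, as log2(CPM + 0.5), in chromosomal order, with circles for replicate 1, squares for replicate 2, bars for the mean of each genotype and a dotted line at 0 CPM. The Q genes, Gm8909 and H2-D1 sit higher in the knockouts (red), the T and M genes sit lower, and H2-K1 overlaps.

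Classical class I genes were the most abundant of the heavy chains. Per kilobase of exon, H2-D1 was at 418 CPM and H2-K1 at 86.2 CPM in the controls, followed by H2-T23 at 17.3, H2-M2 at 6.15, H2-T24 at 3.77, H2-T22 at 3.66, H2-M3 at 3.40 and H2-Q4 at 2.95, with the other Q genes under 0.5. Together H2-K1 and H2-D1 made up 93.7% and 93.03% of class I heavy chain reads in the controls, against 95.4% and 95.9% in the knockouts. The Q, T and M clusters thus carried a small part of the class I signal. H2-D1, whose groups also did not overlap, carried most of it.

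H2-K1, which presents peptides to CD8 T cells, was at 228 and 279 CPM in the controls and 232 and 260 CPM in the knockouts. The groups overlapped (log2 fold change −0.04, 95% confidence interval −0.32 to 0.25). H2-D1, the other classical heavy chain, was at 1014 and 1140 CPM in the controls and 1272 and 1492 CPM in the knockouts. Both knockouts were above both controls, without passing the threshold (log2 fold change 0.36, SE 0.13, limma Benjamini-Hochberg adjusted p = 0.93). The ratio of H2-D1 to H2-K1 CPM was 4.45 and 4.09 in the controls, against 5.49 and 5.74 in the knockouts. B2m, the shared light chain, was at 517 and 635 CPM in the controls and 538 and 630 CPM in the knockouts, with overlapping groups (log2 fold change 0.02, 95% confidence interval −0.29 to 0.33).

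The Q cluster was low in the controls, and H2-Q4 is its only measured gene at 1 CPM or more in both controls. Its 5 measured genes, which encode non-classical chains such as the Qa-2 antigen of H2-Q6 and H2-Q7, summed to 8.51 and 11.6 CPM in the controls and 20.2 and 25.4 CPM in the knockouts, a sum that includes the genes that had to be higher there. H2-Q4, the most abundant, was at 6.43 and 8.89 CPM in the controls and 13.9 and 16.1 CPM in the knockouts. The groups did not overlap (log2 fold change 0.94, SE 0.19, limma Benjamini-Hochberg adjusted p = 0.264). The adjusted p for H2-Q4 was 0.261 in edgeR and 0.0655 in DESeq2.

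H2-Q7 was at 0.584 and 1.12 CPM in the controls and 2.11 and 3.15 CPM in the knockouts. H2-Q6 was at 0.974 and 0.840 CPM in the controls and 1.78 and 2.39 CPM in the knockouts. H2-Q10, known as the gene of a secreted class I chain made in liver, was at 0.455 and 0.490 CPM in the controls and 1.25 and 2.39 CPM in the knockouts. In each of these genes both knockouts stood above both controls, knockout 2 highest. H2-Q2 had 1 and 4 reads in the controls, against 18 and 26 in the knockouts, a depth-scaled ratio of 7.79 with a 95% counting interval of 3.10 to 25.2. The log2 fold changes were 1.22 for H2-Q7, 0.87 for H2-Q6, 1.21 for H2-Q10 and 1.44 for H2-Q2, with limma Benjamini-Hochberg adjusted p of 0.493, 0.781, 0.594 and 0.351. These low values are pulled toward 0 by the added 0.5 CPM.

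The T cluster lay the other way. H2-T23, which encodes Qa-1, the ligand of the CD94 and NKG2 receptors of natural killer cells, was at 41.7 and 58.3 CPM in the controls and 30.0 and 29.7 CPM in the knockouts. The knockouts were nearly equal and lay below both controls (log2 fold change −0.71, SE 0.16). limma with Benjamini-Hochberg adjustment gave 0.326 for H2-T23, edgeR 0.3, and DESeq2 0.0191.

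H2-T22, whose product is recognised by a subset of gamma delta T cells, was at 11.6 and 13.4 CPM in the controls and 4.62 and 6.63 CPM in the knockouts. This was the largest difference of the T cluster (log2 fold change −1.10, SE 0.21), with an adjusted p of 0.193 in limma, 0.196 in edgeR and 0.0253 in DESeq2. Without knockout 2, the limma adjusted p for H2-T22 was 0.0149, and without each of the other libraries it was 0.119 to 0.983. A fit that leaves out a library assumes that the lone library of its group varies like the other group. H2-T24, a further non-classical gene, was at 9.03 and 7.42 CPM in the controls and 3.50 and 4.46 CPM in the knockouts (log2 fold change −0.96, SE 0.21, limma Benjamini-Hochberg adjusted p = 0.29). The knockouts were below the controls here too, and H2-T24 shares the fewest 45-base words with other genes among the 3 measured T genes.

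A ratio of the clusters within a library does not depend on the scaling between libraries. The summed CPM of the Q genes was 0.137 and 0.147 of the summed T genes in the controls, against 0.529 and 0.624 in the knockouts. The T sum itself was 62.3 and 79.1 CPM in the controls and 38.1 and 40.8 CPM in the knockouts. Both clusters contribute to the ratio, which was higher in both knockouts than in both controls. Its Q sum includes H2-Q2, H2-Q6 and H2-Q10, which had to be higher in the knockouts to be tested. The clusters had already been seen to differ in opposite directions, so the ratio restates that difference.

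The M genes are the most distal. H2-M2 was at 8.31 and 10.8 CPM in the controls and 6.01 and 3.15 CPM in the knockouts (log2 fold change −1.03, SE 0.29, limma Benjamini-Hochberg adjusted p = 0.616). With the same assumption, the adjusted p for H2-M2 was 0.0154 without knockout 1 and 0.631 to 0.9997 without each of the other libraries. H2-M3, which presents N-formylated peptides of bacteria and mitochondria, was at 4.94 and 4.83 CPM in the controls and 4.49 and 3.26 CPM in the knockouts (log2 fold change −0.31, 95% confidence interval −0.82 to 0.19). Both lay below the controls, H2-M3 by a difference whose interval includes 0.

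Gm8909, a protein-coding class I gene (chr17:36164443-36168537, minus strand, GRCm38), was the member with the largest difference. It had 0 reads in both controls and 60 and 54 reads in the knockouts, or 3.96 and 2.94 CPM with 95% Poisson intervals of 3.02 to 5.10 and 2.21 to 3.83, which cover counting error only. Against a floor of 3 reads per library (0.21 CPM), the knockout mean was at least 16.4-fold higher. In the controls a count of 0 allows up to 0.195 and 0.21 CPM, so a low level there was not detectable at this depth. Of the 45-base words of Gm8909, 28.6% also occur in transcripts of another gene. Bases 1138 to 1182 of its coding sequence, counted from the start codon, were picked as the stretch most unlike the genes searched. They have no exact match in transcripts of another gene. The values per gene do not show where the reads of Gm8909 fell. Near matches were searched only in genes with an H2- symbol and in the nearby non-coding genes BC023719 and 2410017I17Rik. Class I genes under other symbols were not searched for them. The nearest match found is in H2-T23 and differs at 19 of 45 bases, which are printed as capitals.
Gm8909: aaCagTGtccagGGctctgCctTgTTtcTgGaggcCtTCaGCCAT

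Genes with almost no reads in the controls were counted over the whole table, as a description, since such genes can pass the filter only through the knockouts. Among all 11781 tested genes, 4 had at most 1 read over both controls: Gm8909 itself, H2-DMb2 among the class II genes, and, close to Gm8909, the non-coding genes BC023719 and 2410017I17Rik, which were named after their values were seen. In the other direction, 0 tested genes had at most 1 read over both knockouts. BC023719 (chr17:36111426-36117121, plus strand), annotated as antisense, had 0 and 1 reads in the controls, against 27 and 36 in the knockouts, a depth-scaled ratio of 55.7 with a 95% counting interval of 9.65 to 2236.

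The long non-coding gene 2410017I17Rik (chr17:36145018-36163176, plus strand) had 0 reads in both controls and 54 and 28 in the knockouts, or 3.56 and 1.52 CPM. Its limma Benjamini-Hochberg adjusted p was 0.109, and that of BC023719 was 0.0717. RefSeq draws Gm8909 longer than GENCODE does, as chr17:36143812-36168602, which contains 2410017I17Rik on the opposite strand. Without knowing whether reads were counted by strand, those of that overlap cannot be divided between both genes.

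**Figure D2:**
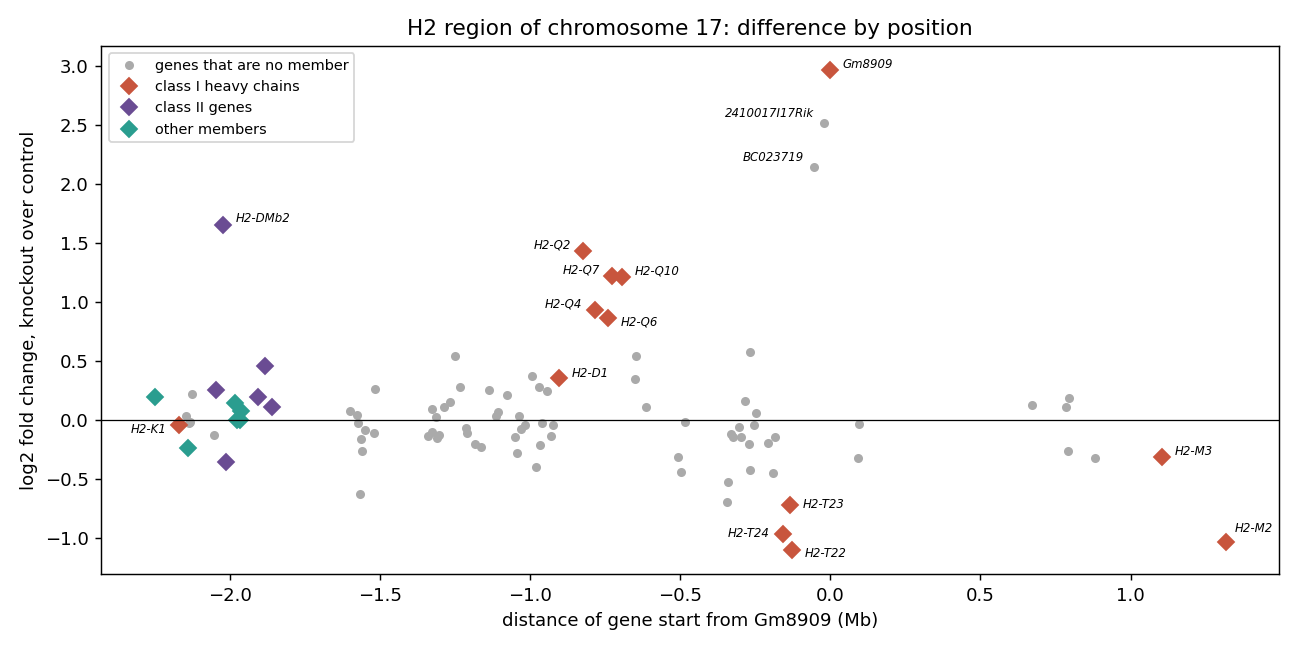
Log2 fold change of each gene between the H2 members of chromosome 17, and of Tapbp just outside, by distance of the gene start from Gm8909 in Mb, with diamonds for members and grey dots for genes that are no member. Gm8909 and its 2 non-coding neighbours stand highest, the Q genes form a raised group to the left, and the T genes, less than 0.2 Mb from Gm8909, lie below 0.

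The other genes of the region had a median difference near 0, but their groups often did not overlap. Between H2-K1 and H2-M2, a span of 3.49 Mb, the table held 75 genes that are no member, of which 68 were tested, and their median log2 fold change was −0.04, against 0.00 for all tested genes. limma and edgeR each called 0 of them (0.161% of all genes), as did DESeq2 (0.605%). An unadjusted limma p under 0.05 was found for 6 (4.9% of all genes), 3 higher (1.35%) and 3 lower (3.55%). Groups did not overlap at 35 of the 68 (51.5%), against 31.9% of all genes and 51.4% of the tested members other than Gm8909. Of the 68, 12 lay above (16.5% of all genes) and 23 below (15.4%). Beside BC023719 and 2410017I17Rik, those with the smallest p were Neu1, a lysosomal sialidase, at 162 and 158 CPM in the controls and 194 and 196 CPM in the knockouts (limma Benjamini-Hochberg adjusted p = 0.734), and Flot1, a membrane scaffold gene, at 25.1 and 28.8 against 22.04 and 15.5 CPM (adjusted p = 0.88).

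How far class I reads can be assigned to single genes varies. As a measure, the share of each gene's 45-base words, the length of 1 sequenced read, that also occur in transcripts of another gene was counted in GENCODE. It was 56.9% for H2-T22, of which 35% with H2-T10 and 18% with an antisense gene, 40.2% for H2-Q4, 38.6% for H2-Q6, 29% for H2-Q7, 28.6% for Gm8909, 21.1% for H2-Q10 and 18.7% for H2-Q2. It was 16.9% for H2-T23, 16% for H2-D1, 12% for H2-K1, 3.86% for H2-T24, 2.01% for H2-M2 and 0.933% for H2-M3. For the non-coding BC023719 and 2410017I17Rik it was 33.7% and 19.8%. H2-T24 and H2-M2, whose sequence is nearly unique by this measure, had log2 fold changes of −0.96 and −1.03, and H2-M3, with the lowest share of the class I genes, −0.31. That of H2-T22 was −1.10. The levels of single Q genes remain uncertain, and these shares hold for the reference haplotype, where another haplotype could share more or fewer words.

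Class II genes were low, and groups did not overlap at 3 of 6: H2-Aa and H2-DMb2, with knockouts above, and H2-DMb1, with knockouts below (31.9% of all genes). H2-Aa, the alpha chain of the A molecule, was at 6.17 and 3.64 CPM in the controls and 7.26 and 6.20 CPM in the knockouts (log2 fold change 0.46). H2-Ab1, its beta chain, was at 8.90 and 5.32 CPM in the controls and 9.70 and 6.58 CPM in the knockouts (0.20). H2-Eb1, the beta chain of the E molecule, was at 3.31 and 2.94 CPM in the controls and 3.96 and 2.94 CPM in the knockouts (0.11).

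The library numbered 1 was above the library numbered 2 in both genotypes for each of these 3 chains, while their 95% confidence intervals for the genotype difference all included 0. The same held for summed dendritic cell markers, 4 of 10 of which were in the table, at 182 and 106 CPM in the controls and 208 and 95.1 CPM in the knockouts. Itgax made up most of that sum, at 148 and 84.6 CPM in the controls and 176 and 73.3 CPM in the knockouts. Zbtb46 went the other way in the controls, at 3.83 and 4.27 CPM, against 5.02 and 4.67 CPM in the knockouts. The dendritic markers Flt3 and Xcr1 were not in the table. Library 1 was also above library 2 in both genotypes at Lyz2 and Adgre1, alone of the macrophage and osteoclast markers. The order was thus not particular to dendritic markers. Of 8 B cell markers 2 were in the table, with summed CPM of 4.16 and 3.08 in the controls, against 4.49 and 3.91 in the knockouts. The part of any of these cell types in the class II levels was not tested.

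Cd74, the invariant chain, was at 50.5 and 41.2 CPM in the controls and 79.3 and 52.3 CPM in the knockouts. Both knockouts were above both controls, with knockout 1 well above knockout 2 (log2 fold change 0.49, SE 0.19, limma Benjamini-Hochberg adjusted p = 0.983). Leaving out knockout 2 gave a log2 fold change of 0.79 (limma adjusted p = 0.0434), and leaving out knockout 1 gave 0.20 (0.949), each with a lone knockout assumed to vary like the controls. Without control 1 or control 2 it did not pass either. H2-DMa, the alpha chain of the peptide exchanger, was at 1.56 and 1.05 CPM in the controls and 2.11 and 1.25 CPM in the knockouts, with overlapping groups.

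The beta chain genes of H2-DM had differences of opposite sign. H2-DMb2 had 0 and 1 reads in the controls, against 17 and 23 in the knockouts, a depth-scaled ratio of 35.4 with a 95% counting interval of 5.998 to 1432 (limma Benjamini-Hochberg adjusted p = 0.224). H2-DMb1, its neighbour and close copy, was at 7.60 and 9.10 CPM in the controls and 6.01 and 6.85 CPM in the knockouts (log2 fold change −0.35, adjusted p = 0.9997). The summed level of the pair overlapped between genotypes, at 7.60 and 9.17 CPM in the controls and 7.13 and 8.10 CPM in the knockouts.

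H2-DMb2 took 0% of the reads of the pair in control 1 (0 of 117, exact Clopper-Pearson 95% interval 0 to 3.10%). In control 2 it took 0.763% (1 of 131, 0.0193 to 4.18%). In knockout 1 it took 15.7% (17 of 108, 9.45 to 24%) and in knockout 2 15.4% (23 of 149, 10.0 to 22.3%). The share was alike in the knockout libraries, and both of their intervals lay above those of the controls. These intervals cover counting error only and not the spread between animals. H2-DMb2 was tested only through the knockouts, so it had to be higher there. Of the words of H2-DMb2, 23.1% also occur in H2-DMb1, so reads can move between them.

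**Figure D3:**
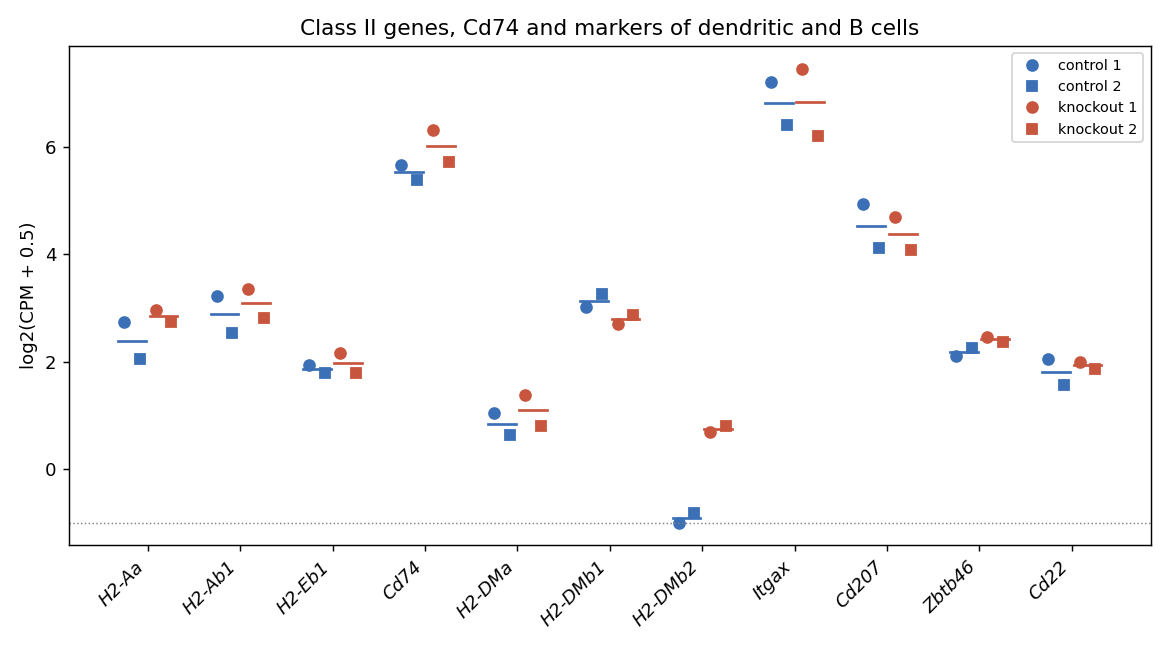
Levels of class II genes, Cd74, 3 dendritic cell markers and the B cell marker Cd22 in each library, as log2(CPM + 0.5), with circles for replicate 1, squares for replicate 2, bars for genotype means and a dotted line at 0 CPM. Replicate 1 is above replicate 2 for H2-Aa, H2-Ab1, Cd74, Itgax and Cd207 in both genotypes, and H2-DMb2 is near 0 in the controls and above 1 CPM in the knockouts.

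In peptide supply and loading, no gene passed the threshold. limma, edgeR and DESeq2 each called 0 of 13 genes, 0 had an unadjusted limma p under 0.05, and the smallest limma Benjamini-Hochberg adjusted p was 0.9997. Every 95% confidence interval included 0, and together they reached from −0.54 to 0.61 on the log2 scale, so smaller differences could have been missed. Groups did not overlap at 3 of the 13 (23.1%, against 31.9% of all genes).

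The transporter chains Tap1 and Tap2 were at 19.4 and 21.98 CPM and 76.5 and 87.8 CPM in the controls and at 21.4 and 20.0 CPM and 86.2 and 87.3 CPM in the knockouts. Tapbp, the bridge between transporter and class I, was at 91.8 and 101 CPM in the controls and 110 and 111 CPM in the knockouts (log2 fold change 0.20, 95% confidence interval −0.02 to 0.42). Tapbpl, a peptide editor related to it, was at 7.73 and 7.07 CPM in the controls and 6.47 and 6.85 CPM in the knockouts. Tapbp lay above and Tapbpl below the controls in both knockouts, each within its interval of 0.

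The chaperones of the loading complex were far more abundant. Calr (calreticulin) was at 3379 and 3659 CPM in the controls and 3647 and 3673 CPM in the knockouts. Canx (calnexin) was at 1210 and 1248 CPM in the controls and 1339 and 1256 CPM in the knockouts. Pdia3, the disulfide isomerase of the complex, was at 840 and 927 CPM in the controls and 953 and 862 CPM in the knockouts. These genes serve glycoprotein folding at large, and Canx alone of them had knockouts above both controls. Erap1, which trims peptides in the endoplasmic reticulum, was at 27.5 and 25.8 CPM in the controls and 31.9 and 21.7 CPM in the knockouts, on either side of both controls.

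The catalytic immunoproteasome subunits overlapped between genotypes. Psmb8 was at 24.03 and 27.6 CPM in the controls and 27.0 and 24.8 CPM in the knockouts. Psmb9 was at 4.94 and 6.16 CPM in the controls and 6.67 and 5.65 CPM in the knockouts, and Psmb10 at 21.4 and 24.7 against 23.8 and 22.1 CPM. Their log2 fold changes were 0.00, 0.14 and 0.00, and Psmb8, Psmb9 and the T cluster lie on the same chromosome. Psme1 and Psme2, the subunits of the proteasome activator PA28, had log2 fold changes of 0.08 and −0.06.

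The regulators were near the limit of the table. Nlrc5, the transactivator of class I genes, was at 3.38 and 5.32 CPM in the controls and 3.43 and 4.24 CPM in the knockouts (log2 fold change −0.14, 95% confidence interval −0.73 to 0.46). Ciita, the transactivator of class II genes, was at 0.520 and 0.280 CPM in the controls and 0.462 and 0.761 CPM in the knockouts, under the filter and not tested. H2-Ke6 was at 31.4 and 29.9 CPM in the controls and 20.9 and 32.1 CPM in the knockouts, and 71.7% of its 45-base words also occur in an overlapping gene.

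**Figure D4:**
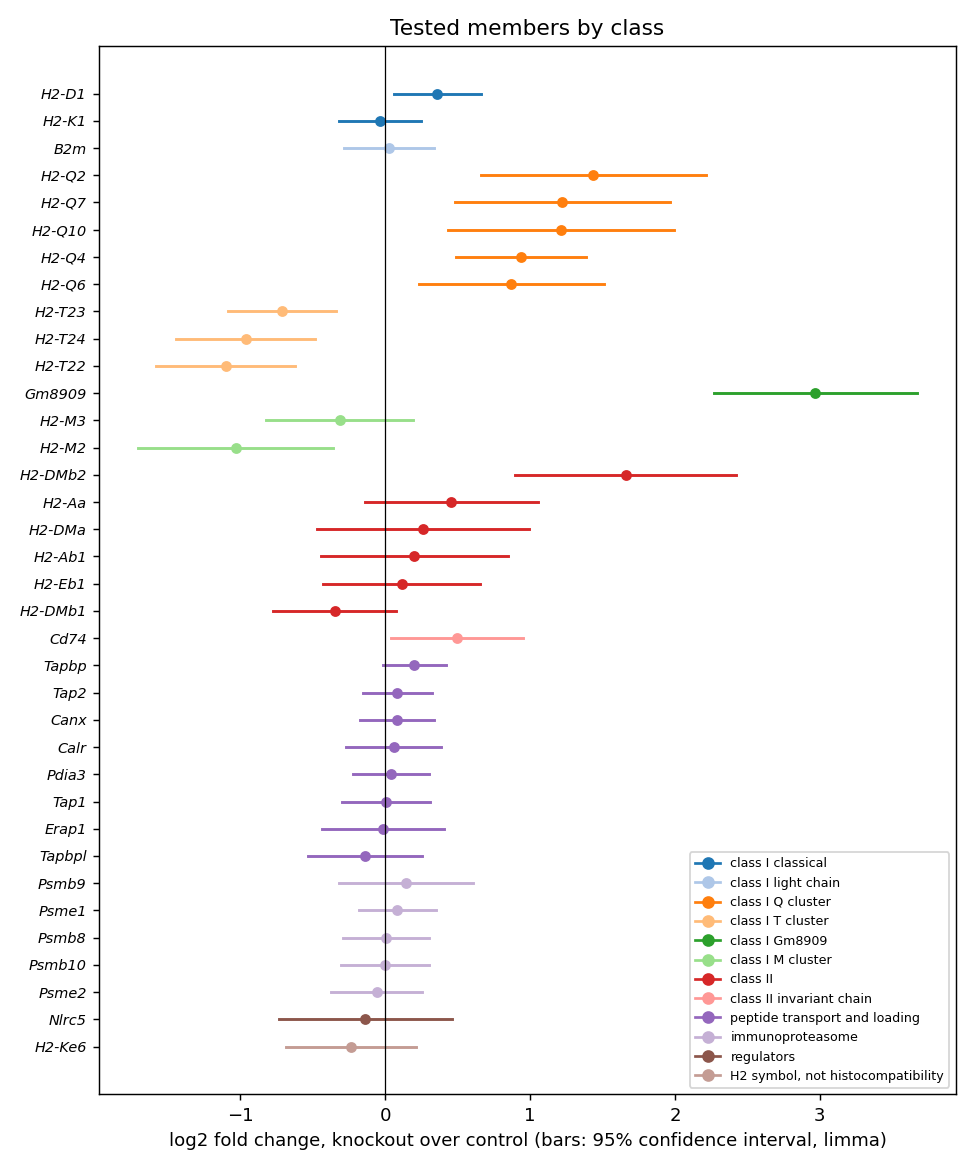
Log2 fold change of the 36 tested members with 95% confidence intervals from limma, by class. Before adjustment, intervals of the Q genes, H2-D1, H2-DMb2 and Cd74 lie above 0 and those of the T genes and H2-M2 below it. H2-Q2, H2-Q6, H2-Q10 and H2-DMb2 were tested only through the knockouts and had to be higher there. Gm8909, chosen for its difference, is farthest to the right. Intervals of peptide loading and immunoproteasome genes all include 0.

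Few of the other genes of the pathway had small p-values. Of 45 further genes of antigen presentation, 42 were in the table and 41 were tested. limma and edgeR each called 0 (0.161% of all genes), as did DESeq2 (0.605%), and 1 had an unadjusted limma p under 0.05 (4.9%). Groups did not overlap at 11 (26.8%, against 31.9%), and the median log2 fold change was 0.05. The gene with the small p was Lgmn, an endosomal protease that processes class II antigens, at 138 and 137 CPM in the controls and 184 and 154 CPM in the knockouts (limma Benjamini-Hochberg adjusted p = 0.943). Next by p were the peptidase gene Thop1 and the cathepsin gene Ctsl, each with an adjusted p of 0.9997.

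Of 25 interferon-responsive genes, many of which share inducers with class I, 20 were in the table and 16 were tested. limma and edgeR each called 0 (0.161% of all genes), as did DESeq2 (0.605%), and 1 had an unadjusted limma p under 0.05 (4.9%). Groups did not overlap at 7 (43.8%, against 31.9%), and the median log2 fold change was 0.02. The gene with the small p was Rtp4, a chaperone of receptors, named after its value was seen, at 3.77 and 2.52 CPM in the controls and 1.32 and 1.74 CPM in the knockouts (limma Benjamini-Hochberg adjusted p = 0.835).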

How the data were processed

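Poly(A) RNA of 4 libraries was read from the authors' deposited table of a normalised signal per gene and library. The submitters' processing notes name STAR, featureCounts of Subread, edgeR and the builds mm10 and GRCm38. The sources used here give no versions, annotation release, filter on low genes or strand setting. Every deposited signal was a whole multiple of what 1 read is worth (100% of values within 0.001 reads), which gave back whole reads, and edgeR's TMM-scaled CPM of these reads equalled the deposited signal, so the values are called CPM.

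limma with an intensity trend was fitted on log2(CPM + 0.5) for 11781 of 12799 genes (filter: 1 CPM in 2 or more libraries). Genotype was the only term and the test 2-sided, with Benjamini-Hochberg adjustment over all tested genes and a call at an adjusted p under 0.05. It called 19 genes. On this scale the fold change of a low gene is understated. On the recovered whole reads edgeR called 19 genes and DESeq2 63. The steps were tested on simulated data. Poisson and Clopper-Pearson intervals and the floor of 3 reads cover counting error only.

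The members and gene lists were chosen with earlier results of these data known. Every member is named, and of other genes Piezo1 and up to 4 each of the further pathway genes and of the genes between H2 members with the smallest p, of which 1 is counted but not reported here. Positions, exon lengths and shared 45-base words came from GENCODE M21 on GRCm38, and promoters from RefSeq on GRCm38.p6, matched by symbol for 30 of 37 members. Alternatives were other pseudocounts, filters, scalings, variance models and tools, a replicate block and each library left out. Tests ran in R 4.3.3 with limma 3.58.1, edgeR 4.0.16 and DESeq2 1.42.0. Sequences and summaries were handled in Python 3.11.15 with pandas 2.3.3, intervals came from SciPy 1.17.1, and figures from matplotlib 3.10.9 with NumPy 2.4.6.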

Additional observations from a re-analysis of the deposited data

How the results depend on the processing

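The number of genes called by limma was 19, and 4 without an intensity trend, 63 with DESeq2, and 7 to 76 when 1 library was left out. Counts of members called include Gm8909, which was chosen for its difference, so its part in them is a description. The count was 1, Gm8909, and 0 with a filter of 5 CPM, which leaves Gm8909 out, 2 with DESeq2 (H2-T22 and H2-T23, Gm8909 having no adjusted p there), and 0 to 3 when 1 library was left out. Such fits assume that the lone library of a group varies like the other group. The count was 0 without either control, 2 without knockout 1 (Gm8909 and H2-M2) and 3 without knockout 2 (Cd74, Gm8909 and H2-T22). With the replicate block 89 genes and 7 members were called: Gm8909, H2-DMb2, H2-M2, H2-Q4, H2-T22, H2-T23 and H2-T24. Deviations of same-numbered libraries from their group means had a correlation of −0.00159, which gives no sign over all genes that the numbers pair the libraries, and the labels name no shared source. The median log2 fold change of the Q genes was 1.21, and 0.91 with a pseudocount of 1, 1.55 with 0.1, 0.94 with the 5 CPM filter, which leaves H2-Q4 alone, 1.64 in edgeR, 1.63 in DESeq2 and 0.85 to 1.46 when 1 library was left out. The class II median was 0.23, with −0.046 to 0.51 when 1 library was left out and the negative value without knockout 1. That of the T genes was −0.96, with −1.12 to −0.81. Of the 12 members other than Gm8909 at an unadjusted p under 0.05, 0 changed direction over 170 refits. This count cannot serve as support. The groups of all 12 did not overlap, so leaving out a library or changing the pseudocount could not reverse them. H2-DMb2, H2-Q2, H2-Q6 and H2-Q10 had also passed the filter through the knockouts alone.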
